A study of Homo sapiens with 18 samples.

Results

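The comparison described here asked what 50 µM oleate did to the transcriptome of OVCAR5 cells while stearoyl-CoA desaturase was left active. The authors describe OVCAR5 as a human ovarian cancer cell line, and its origin was not tested here. The comparison rests on 6 of the 18 RNA sequencing samples of the study: 3 replicates of oleate+DMSO and 3 replicates of DMSO, the vehicle of the desaturase inhibitor. The 6 samples were placed in their groups by their labels. Both groups were cultured for 24 h in the same medium, in which fatty-acid-free bovine serum albumin carried the fatty acid. As described, the treatments differed by the oleate only. Any batch of extraction, library preparation or sequencing is not given in the sources used here, so a difference of that kind cannot be told apart from oleate. The remaining 12 samples held 1 µM CAY10566, an inhibitor of the desaturase SCD1, stearate at 50 µM with DMSO, or a fatty acid together with CAY10566, again with 3 replicates each. Nothing in the labels says that the 3 replicates came from separately grown stocks, so the p-values measure the spread between these samples, which may be technical. The model is 1 cell line in culture.

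Oleate is the monounsaturated fatty acid that SCD makes from stearate, and cells can store it safely as triacylglycerol. Lipid synthesis is governed by the SREBP transcription factors, which SCAP carries from the endoplasmic reticulum to the Golgi for activation and which INSIG proteins hold back. SREBP1 mainly drives fatty acid synthesis and SREBP2 mainly drives cholesterol synthesis and uptake. Both act together with NF-Y, which binds the sequence CCAAT. Unsaturated fatty acids are known to lower the activity of SREBP1, and long-chain fatty acids are ligands of the PPAR receptors, whose targets include genes of fatty acid oxidation.

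Expression was given as TPM, the estimated share of a gene among all transcripts of the sample, corrected for transcript length. TPM holds no read numbers, and the sequencing depth is therefore unknown. Genes with a mean of at least 1 TPM over the 6 samples, 13763 in all, were compared on the log2(TPM + 1) scale with limma, which understates the fold change of low genes. A gene was called at a Benjamini-Hochberg adjusted p under 0.05 and a log2 fold change over 0.32 in either direction, and all adjusted p-values below come from these fits. Because TPM values of one sample must sum to the same total, the comparison was repeated after the TPM of each sample had been divided by a median-of-ratios size factor, which sets the typical gene to no change. These factors were 0.947 to 0.970 in the DMSO samples and 1.02 to 1.07 in the oleate samples. In bulk RNA, a change in every cell and a change in the share of cells cannot be told apart.

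The cells carried epithelial markers but few markers of serous ovarian cancer. All 11 epithelial markers were at a mean of at least 1 TPM, and EPCAM, a cell surface adhesion protein of epithelia, ran from 325 to 353 TPM over the 6 samples. Their sum was 3418 to 3560 TPM with DMSO and 3269 to 3345 TPM with oleate. Only 3 of 9 ovarian serous markers passed that level. PAX8, a transcription factor of the Müllerian tract, ran from 9.79 to 16.9 TPM, while WT1, SOX17 and EMX2 were at or below 0.2 TPM, and the list summed to 17.4 to 20.1 TPM with DMSO and 19.0 to 24.1 TPM with oleate. Of the gastrointestinal markers 4 of 11 passed, with sums over the list of 19.8 to 23.6 TPM with DMSO and 17.0 to 22.3 TPM with oleate. They were TFF1 at 7.23 to 13.85 TPM, CDX2 at 2.50 to 4.26 TPM, CEACAM6 at 2.33 to 3.62 TPM and KRT20 at 1.48 to 2.32 TPM. None of the 4 adipocyte markers passed. Summed fibroblast and mesothelial markers (3 of 11 passed) were at 75.9 to 81.5 TPM with DMSO and 74.9 to 76.9 TPM with oleate. Immune and endothelial markers (2 of 10 passed) summed to 91.8 to 94.3 TPM and 98.4 to 115 TPM, nearly all of it CD68, a lysosomal protein, while PTPRC was at 0.

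More genes were called higher than lower with oleate. As deposited, 1866 genes (13.6% of those tested) were higher and 118 (0.857%) were lower, so 94.1% of the calls were rises. After rescaling, 800 genes (5.81%) were higher and 401 (2.91%) lower, and 66.6% of the calls were rises. All 800 and all 118 were called under both scalings. Without DMSO replicate 2 the counts after rescaling were 501 and 252. The rescaling moved the median log2 fold change over the 13763 genes from 0.11 to -0.0081, a shift of 0.12, and changes are read against that median below. All 3 oleate values lay above all 3 DMSO values for 4885 genes (35.5%) and below them for 1032 (7.5%). Replicates correlated across genes at 0.984 to 0.986 and samples of different groups at 0.978 to 0.983.

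**Figure D1:**
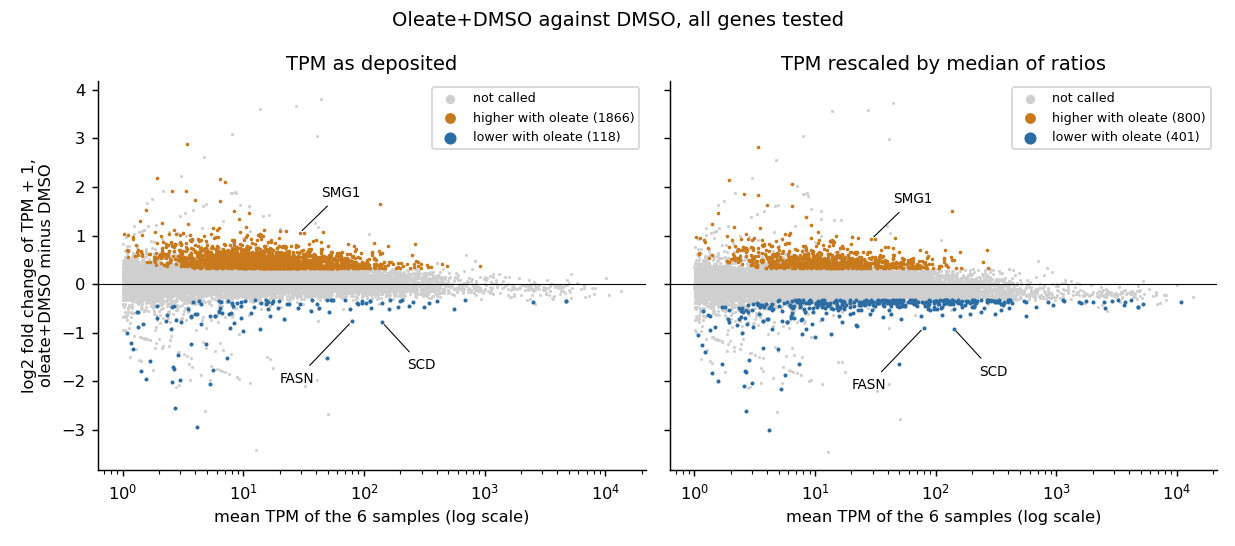
Log2 fold change of TPM + 1 (oleate+DMSO minus DMSO, vertical axis) against the mean TPM of the 6 samples (horizontal axis, log scale) for 13763 genes, as deposited (left) and after median-of-ratios rescaling (right). Orange points are the genes called higher (1866 and 800), blue points those called lower (118 and 401), and SCD and FASN stand at -0.78 and -0.76 in the left panel.

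Among the transcripts that fell were the desaturase itself and the fatty acid synthase. SCD, the desaturase that turns stearate into oleate, was at 185, 183 and 167 TPM in the 3 DMSO samples and at 104, 107 and 99.9 TPM in the 3 oleate samples. Every oleate sample was far below every DMSO sample, a log2 fold change of -0.78 (SE 0.050, adjusted p = 0.00106) as deposited and -0.91 (adjusted p = 0.00181) after rescaling. FASN, the fatty acid synthase that builds palmitate from malonyl-CoA, was at 97.5, 109 and 93.8 TPM with DMSO and at 56.4, 56.0 and 63.5 TPM with oleate. The groups were again well apart, with a log2 fold change of -0.76 (SE 0.073, adjusted p = 0.00139). INSIG1, which retains the SCAP-SREBP complex in the endoplasmic reticulum and is itself an SREBP target, went from 64.5, 64.4 and 57.1 TPM to 44.6, 39.5 and 39.3 TPM. Its log2 fold change was -0.58 (SE 0.070, adjusted p = 0.00253).

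Enzymes of the cholesterol pathway fell as well. Of the 32 genes of cholesterol synthesis and uptake on the list, 30 were tested, and 7 were called lower and 0 higher as deposited, where 0.857% of all genes were called lower. Their median log2 fold change was -0.18, against 0.11 over all genes. After rescaling, 15 of the 30 were called lower, where 2.91% of all genes were, their median was -0.31 and 29 of 30 had a negative value. All 3 oleate values lay below all 3 DMSO values for 15 of the 30, where that held for 7.5% of all genes.

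The 7 that fell under both scalings were INSIG1 and 6 enzymes spread along the pathway, 5 of them chosen after their values were seen. DHCR7, which makes the last reduction to cholesterol, was at 93.5, 90.1 and 85.8 TPM with DMSO and at 61.6, 63.2 and 62.4 TPM with oleate. The oleate samples lay close together and below all DMSO samples, and the log2 fold change was -0.52 (SE 0.043, adjusted p = 0.00106). FDPS, the synthase of farnesyl diphosphate, was at 224, 223 and 220.0 TPM with DMSO and at 161, 166 and 153 TPM with oleate (log2 fold change -0.47, adjusted p = 0.00106). MSMO1, a sterol methyl oxidase, went from 47.8, 51.6 and 48.9 TPM to 36.4, 35.9 and 33.1 TPM (log2 fold change -0.48, adjusted p = 0.00215). No oleate value of either gene reached the lowest DMSO value. The mevalonate enzymes MVD and MVK had log2 fold changes of -0.41 and -0.40, and FDFT1, which makes squalene, had one of -0.38, also without overlap of the groups.

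Not every enzyme of the list passed the test. HMGCS1, the cytosolic synthase at the start of the mevalonate pathway, had a log2 difference of -0.10 (adjusted p = 0.189) as deposited and -0.23 (adjusted p = 0.0105) after rescaling, short of the fold threshold. With a sample left out its value as deposited ran from -0.12 to -0.055.

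Fatty acid synthesis genes were called in both directions. Of 22 tested, 1 was called higher and 2 lower as deposited (4.55% and 9.09%, against 13.6% and 0.857% of all genes), with a median log2 fold change of 0.0057. After rescaling, 0 were higher and 5 lower (22.7%, against 2.91%), with a median of -0.12. The 2 lower were SCD and FASN. SREBF1, the gene of SREBP1, was at 52.2, 55.1 and 50.5 TPM with DMSO and at 40.5, 41.6 and 44.3 TPM with oleate. The groups did not overlap, and its log2 fold change of -0.31 (adjusted p = 0.00700) fell just short of the fold threshold as deposited and passed it after rescaling, at -0.44 (adjusted p = 0.00302). It also passed as deposited without DMSO replicate 3 (-0.34) or without oleate replicate 3 (-0.35). ACSS2, which makes acetyl-CoA from acetate, and ME1, malic enzyme, were likewise called lower after rescaling only, with log2 fold changes of -0.45 and -0.42.

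ELOVL7, an elongase of fatty acids, was the gene of that list called higher as deposited, from 7.65, 7.55 and 7.90 TPM to 9.98, 11.5 and 10.8 TPM (log2 fold change 0.43, adjusted p = 0.00784). After rescaling its value was 0.31, below the fold threshold. ACLY, which makes cytosolic acetyl-CoA from citrate, was at 71.1, 65.5 and 69.1 TPM with DMSO and at 79.3, 84.0 and 80.0 TPM with oleate. Its oleate values were all above the DMSO values, the opposite side from FASN, with log2 differences of 0.24 (adjusted p = 0.00992) as deposited and 0.11 (adjusted p = 0.1002) after rescaling. SLC25A1, the mitochondrial citrate carrier that supplies ACLY and is on no list, was named after its values were seen. It was at 131, 138 and 129.9 TPM with DMSO and at 94.8, 90.2 and 96.7 TPM with oleate (log2 fold change -0.50, adjusted p = 0.00111). The desaturases of polyunsaturated fatty acids, FADS1 and FADS2, overlapped between the groups, with log2 differences of 0.064 (95% interval -0.074 to 0.20) and -0.013 (95% interval -0.25 to 0.22). ELOVL7, ACLY, ACSS2 and ME1 were also named after their values were seen.

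**Figure D2:**
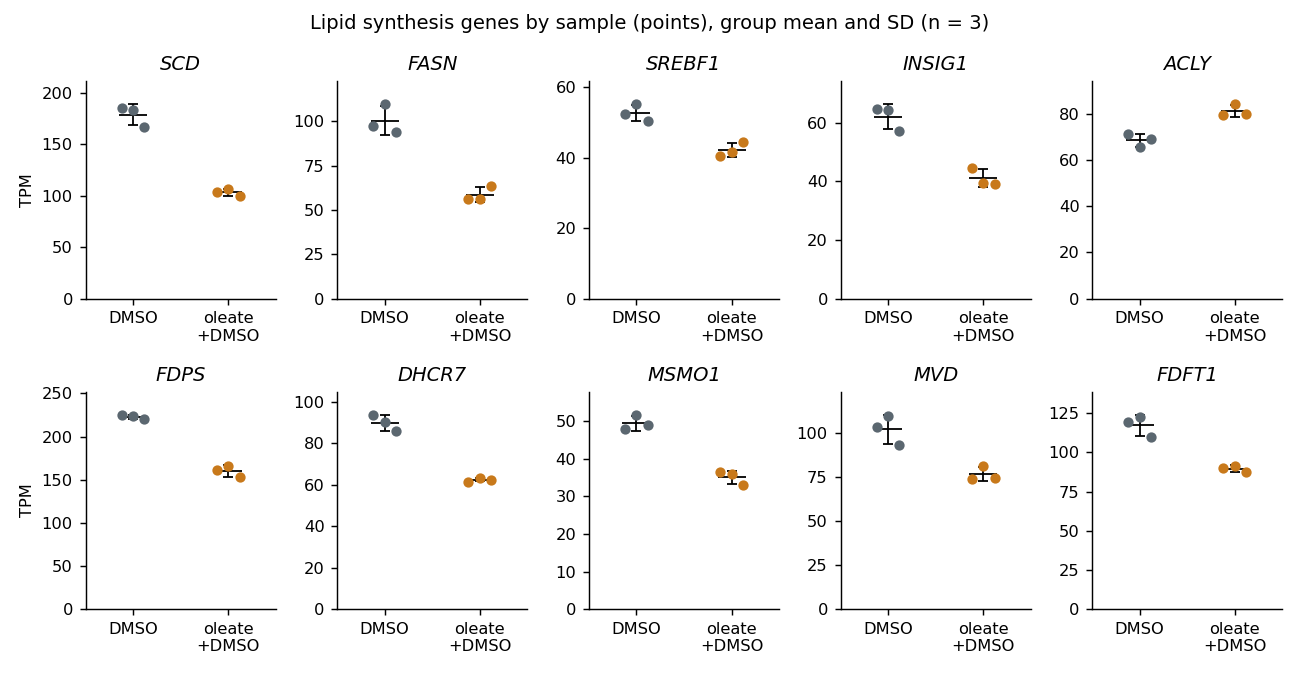
TPM (vertical axes, from 0) of 10 genes of lipid synthesis in the 3 DMSO samples (grey) and the 3 oleate+DMSO samples (orange), with the group mean and SD. SCD, FASN, SREBF1, INSIG1, FDPS, DHCR7 and MSMO1 are lower in every oleate sample, MVD and FDFT1 are lower in every one as well, and ACLY is higher.

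The promoters of 4 genes called lower are shown so that they can be searched for CCAAT, the sequence that NF-Y binds next to SREBP. Each is the 250 bases before the start of the gene on the plus strand of GRCh38.p14, taken from RefSeq. The 4 are the largest falls among genes of both lipid lists that were called lower and had a single entry. Capitals mark CCAAT, its reverse complement ATTGG, and CACGTG.
SCD, chr10:100346983-100347232: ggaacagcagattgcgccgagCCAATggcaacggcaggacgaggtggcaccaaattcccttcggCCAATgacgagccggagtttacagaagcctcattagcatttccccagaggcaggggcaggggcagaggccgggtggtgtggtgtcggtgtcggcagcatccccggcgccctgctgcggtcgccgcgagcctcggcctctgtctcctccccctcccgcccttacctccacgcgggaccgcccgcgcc
INSIG1, chr7:155297628-155297877: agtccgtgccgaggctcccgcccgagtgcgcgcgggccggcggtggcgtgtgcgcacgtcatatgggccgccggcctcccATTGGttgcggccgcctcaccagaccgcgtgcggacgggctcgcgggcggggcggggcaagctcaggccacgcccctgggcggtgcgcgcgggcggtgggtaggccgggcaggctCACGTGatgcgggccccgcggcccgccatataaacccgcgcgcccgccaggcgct
MSMO1, chr4:165327419-165327668: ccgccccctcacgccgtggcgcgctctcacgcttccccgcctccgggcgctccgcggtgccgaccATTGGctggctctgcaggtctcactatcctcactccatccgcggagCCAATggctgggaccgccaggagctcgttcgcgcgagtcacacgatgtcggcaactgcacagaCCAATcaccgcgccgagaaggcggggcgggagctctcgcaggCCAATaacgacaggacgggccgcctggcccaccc
FDPS, chr1:155308616-155308865: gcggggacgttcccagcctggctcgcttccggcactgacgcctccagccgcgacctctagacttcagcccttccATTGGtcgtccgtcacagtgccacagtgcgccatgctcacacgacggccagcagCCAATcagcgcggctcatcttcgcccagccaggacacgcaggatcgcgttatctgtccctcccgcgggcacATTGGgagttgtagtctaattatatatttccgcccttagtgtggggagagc

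The INSIG1 window holds 1 CCAAT, on the minus strand, and a CACGTG. The SCD, FDPS and MSMO1 windows hold 2, 3 and 4 CCAAT. Both strands were searched, and no motif overlapped another in these windows. Of the 9 members of the 2 lists called lower as deposited, 7 had a promoter entry, and all 7 (100%) held at least 1 CCAAT. Of the 43 members not called lower, 36 had an entry, and 22 (61.1%) held one. Among all 35116 promoter entries of the table the share was 32.0%, and among the 14624 entries of genes tested it was 32.9%. Shares over the table count entries, here and for the motifs below, whereas a member counted once if any of its entries held the motif. The member shares are therefore not on the same footing as those of the table. CACGTG was found in 1 of the 7 and 4 of the 36, against 8.42% of the promoters of genes tested. The sterol element TCACNCCAC was found in 0 of the 7 and 1 of the 36, against 0.841%. These are matches of letters, with no test of binding.

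Few genes of fatty acid oxidation under PPAR control were called. Of the 40 PPAR targets and oxidation genes, 33 were tested, and 2 were called higher and 0 lower as deposited, where 13.6% of all genes were called higher. The median log2 fold change of the 33 was -0.0077, below the 0.11 of all genes. After rescaling 1 was called higher (3.03%, against 5.81%) and 0 lower, and the median was -0.12, with 25 of the 33 negative. After trend removal 0 were higher and 2 lower, where 2.56% and 2.20% of all genes were. CPT1A, which admits long-chain fatty acids to the mitochondrion, was at 9.56, 8.71 and 10.2 TPM with DMSO and at 12.9, 12.1 and 12.5 TPM with oleate. All 3 oleate samples were above the controls, with a log2 fold change of 0.37 (SE 0.076, adjusted p = 0.0134) as deposited, and 0.24 (adjusted p = 0.0588) after rescaling. Without DMSO replicate 2 it was 0.31, under the fold threshold, and with all 18 samples in the fit it did not pass (adjusted p = 0.0773). The other call was PPARA, the receptor itself, named after its values were seen, at 2.92, 3.76 and 2.92 TPM with DMSO and 6.33, 4.75 and 6.21 TPM with oleate. It was called under both scalings, at 0.68 and 0.58 on the log2 scale.

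ACADVL, the very long-chain acyl-CoA dehydrogenase, had a log2 difference of 0.080 (adjusted p = 0.201), and of 0.049 to 0.098 with a sample left out. ANGPTL4, a secreted inhibitor of lipoprotein lipase and a common PPAR target, was at 13.97, 16.7 and 12.7 TPM with DMSO and 14.02, 10.0 and 11.8 TPM with oleate, which overlapped. Other classical targets were listed near 0: PDK4 ran from 0.23 to 0.53 TPM over the 6 samples and PLIN2, the coat protein of lipid droplets, from 0.12 to 0.54 TPM. Neither reached the level for a test, and whether these low values reflect the cells or the upstream assignment of reads was not tested.

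Genes that take up, activate and store fatty acids had values on both sides of zero. Of 35 tested, 5 were called higher and 0 lower as deposited, and 1 higher and 2 lower after rescaling. The share higher, 14.3% as deposited, was near the 13.6% of all genes, and the 2.86% after rescaling was below 5.81%. The share lower after rescaling was 5.71%, against 2.91% of all genes. The member that rose under both scalings was LPIN2, a phosphatidate phosphatase of triacylglycerol synthesis, from 88.0, 86.6 and 92.0 TPM to 119, 123 and 127 TPM. Its groups were well apart, with a log2 fold change of 0.46 (SE 0.041, adjusted p = 0.00120) as deposited and 0.33 (adjusted p = 0.00284) after rescaling. AGPAT3, an acyltransferase of phospholipid synthesis, went from 20.5, 19.7 and 19.9 TPM to 25.7, 28.4 and 26.5 TPM, at 0.41 as deposited and 0.28, under the fold threshold, after rescaling. ACSL3, the acyl-CoA synthetase of nascent lipid droplets, was at 102, 106 and 105 TPM with DMSO and at 78.7, 94.1 and 89.8 TPM with oleate. It was called lower after rescaling, at -0.39 (adjusted p = 0.00545), and not as deposited, at -0.26. The enzymes of the final step of triacylglycerol synthesis, DGAT1 and DGAT2, overlapped between the groups, with log2 differences of -0.032 (95% interval -0.24 to 0.17) and 0.029 (95% interval -0.19 to 0.25). HILPDA, an inhibitor of lipolysis, had a log2 difference of -0.21 (adjusted p = 0.0790).

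The size of the change followed transcript length across all genes. When genes were split into 10 bins by length, the shortest bin held transcripts of 75 to 1065 nt. There the median log2 fold change was -0.036 and 4.33% were called higher as deposited. In the longest bin, 7564 to 44880 nt, it was 0.32 and 42.6% were called higher. After rescaling the share in the longest bin was still 25.3%, and Spearman's rho between length and log2 fold change was 0.467 as deposited and 0.459 after rescaling, across genes, which are not independent replicates. The 3 DMSO samples all stood on one side and the 3 oleate samples on the other. Correlating length with each sample's deviation from the gene means of the 18 samples gave rho of -0.356, -0.372 and -0.337 with DMSO and 0.220, 0.316 and 0.255 with oleate. With CAY10566 alone, replicates 1 and 2 were at -0.235 and -0.265 and replicate 3 at 0.256, so that replicate 3 stood with the oleate samples. The oleate+CAY10566 samples were at 0.258, 0.206 and -0.0054, the last without the trend of the other oleate samples. Among the stearate+DMSO samples 2 had a trend of the same sign as oleate, at 0.201 and 0.0839, and replicate 3 was at -0.145.

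**Figure D3:**
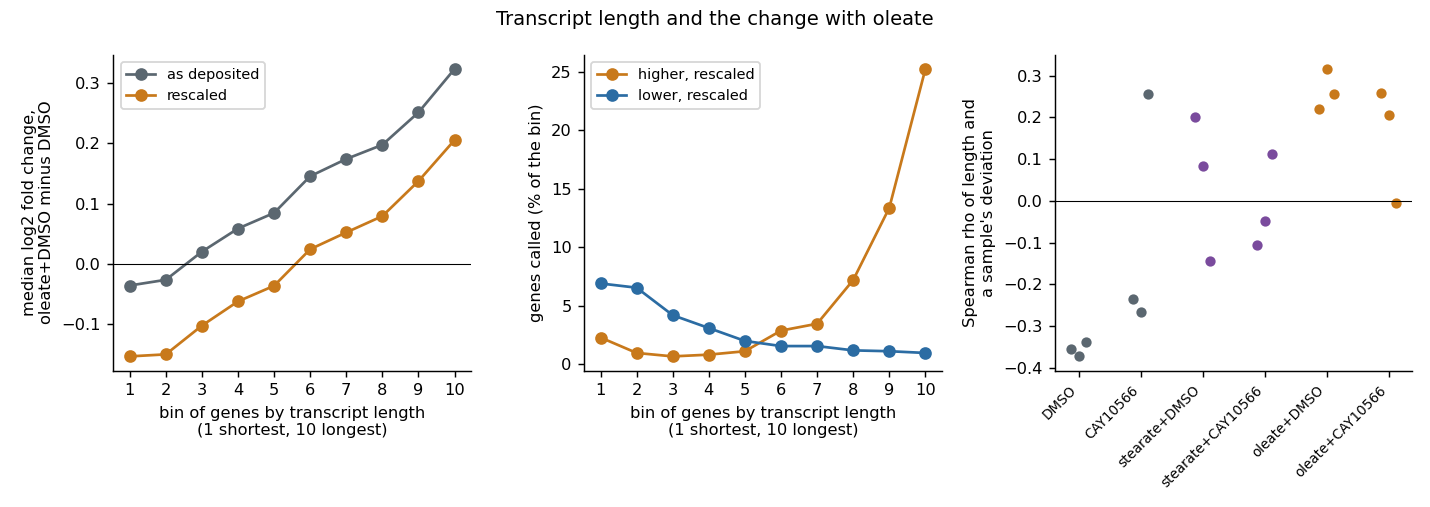
Left, median log2 fold change (oleate+DMSO minus DMSO) in 10 bins of genes from the shortest to the longest transcripts, as deposited (grey) and rescaled (orange). Middle, the percent of each bin called higher (orange) or lower (blue) after rescaling, which reaches 25.3% higher in the longest. Right, Spearman's rho between transcript length and each sample's deviation from the mean of the 18 samples, where the DMSO samples run from -0.372 to -0.337 and the oleate+DMSO samples from 0.220 to 0.316.

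Removing each sample's trend on length and GC content, together with its mean level, left 349 genes higher (2.56% of 13615) and 300 lower (2.20%), and 317 rises and 94 falls were called under all 3 treatments of the data. SCD was at -0.99, FASN at -1.06, SREBF1 at -0.51 and INSIG1 at -0.67 on the log2 scale after the removal. Removing the level lowers every log2 fold change by the same amount, so falls become larger in size by that step alone. SCD was at -0.87, FASN at -0.94 and INSIG1 at -0.55 with the level kept, against -0.78, -0.76 and -0.58 as deposited. With trend and level removed, 10 of 30 cholesterol genes were called lower and 0 higher, and of the fatty acid synthesis genes 5 lower and 0 higher. CPT1A (0.17), PPARA (0.38), AGPAT3 (0.18) and ELOVL7 (0.26) no longer passed the test, and LPIN2 (0.23, adjusted p = 0.00829) no longer passed the fold threshold. The part of transcript length, or of what it stands for, in the rises was not tested.

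Cytosolic ribosomal protein genes together made up 24.9%, 24.9% and 25.1% of all TPM with DMSO and 23.1%, 23.4% and 23.6% with oleate, and the samples did not overlap. Of the 78, 1 was called lower as deposited, at a median log2 fold change of -0.082, and 13 after rescaling, at a median of -0.22. These are 1.28% and 16.7% of the list, against 0.857% and 2.91% of all genes. Without oleate replicate 2 the count after rescaling was 7. The median transcript length of the 78 was 1938.5 nt, against 3461 nt over all genes tested. All 3 oleate values were below the DMSO values for 57 of the 78, where that held for 7.5% of all genes. RPL28, a protein of the large subunit, went from 5073, 5377 and 5409 TPM to 4398, 3894 and 4259 TPM (log2 fold change -0.34, adjusted p = 0.00379), and without oleate replicate 2 its value of -0.29 was under the fold threshold. RPL23A, which lies at the exit of the large subunit's peptide tunnel, went from 3937, 4014 and 4022 TPM to 3282, 3238 and 3292 TPM, at -0.29 as deposited and -0.42 after rescaling (adjusted p = 0.00181). Trend removal left 3 of the 78 called lower, where 2.20% of all genes were.

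Of the 76 nuclear genes of the respiratory chain and ATP synthase, 0 were called in either direction as deposited, with all 3 oleate values below the DMSO values for 25, where 7.5% of all genes were. After rescaling 10 (13.2%, against 2.91% of all genes) were called lower, and 3 after trend removal, where 2.20% of all genes were. NDUFS8, a subunit of complex I, was at 231, 233 and 225 TPM against 182, 179.7 and 194 TPM, with log2 fold changes of -0.31 as deposited and -0.44 (adjusted p = 0.00205) after rescaling. With 1 sample left out it passed as deposited without DMSO replicate 3 (-0.32) or oleate replicate 3 (-0.34). NDUFA3, another subunit of complex I, was at -0.28 as deposited and -0.42 after rescaling. The genes encoded in mitochondrial DNA made up 6.44%, 6.76% and 6.22% of all TPM with DMSO, and 7.31%, 5.58% and 4.30% with oleate. Those shares overlapped. Of the 15 genes 1 (6.67%, against 0.857% of all genes) was called lower, MT-ND3, at -0.34 (adjusted p = 0.0359). That call was lost without DMSO replicate 1, 2 or 3 and without oleate replicate 2 or 3, at adjusted p from 0.0232 to 0.113 and values from -0.36 to -0.22. MT-CO3, a core subunit of complex IV, was at 2899, 3109 and 2878 TPM against 2997, 2271 and 1604 TPM, with a log2 difference of -0.42 (SE 0.19, adjusted p = 0.156), -0.63 (adjusted p = 0.0189) without oleate replicate 1 and -0.18 (adjusted p = 0.281) without oleate replicate 3.

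A list of long non-coding RNAs had a median of 0.40 as deposited and 0.27 after rescaling over 7 genes, whose median length was 7474 nt. It was drawn up for RNAs kept in the nucleus, but both members described here, NORAD and OIP5-AS1, are known mainly from the cytoplasm. As deposited, 4 were called higher and 0 lower, after rescaling 2 higher and 1 lower, and after trend removal 0 in either direction. As deposited 57.1% of the 7 were higher, against 13.6% of all genes, and after rescaling 28.6% were higher and 14.3% lower, against 5.81% and 2.91%. NORAD, which binds Pumilio proteins, was at 108, 99.7 and 106 TPM with DMSO and at 147, 148 and 148 TPM with oleate. These did not overlap, with log2 fold changes of 0.49 (adjusted p = 0.00106) as deposited and 0.36 (adjusted p = 0.00255) after rescaling. OIP5-AS1 was at 0.48 (adjusted p = 0.00842) as deposited.

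The unfolded protein response, which saturated fatty acids are known to trigger, was read first from its 4 best known genes, and none of them passed the test. DDIT3, the gene of the proapoptotic factor CHOP, was at 153, 135 and 144 TPM with DMSO and at 137, 138 and 130.1 TPM with oleate. The groups overlapped, with a log2 difference of -0.094 and a 95% interval of -0.21 to 0.023. ATF4, the transcription factor downstream of PERK, was at 541, 539.9 and 543 TPM against 518, 514 and 517 TPM, a log2 difference of -0.068 with a 95% interval of -0.12 to -0.013 (adjusted p = 0.0722). XBP1, the target of the IRE1 nuclease, had a log2 difference of 0.084 (adjusted p = 0.106), and HSPA5, the luminal chaperone BiP, had one of 0.025 with a 95% interval of -0.078 to 0.13.

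The 3 arms had about as many members called higher as genes in general. In the PERK-ATF4 arm 6 of 39 genes were called higher and 1 lower as deposited, and 2 higher and 1 lower after rescaling. The shares higher were 15.4% and 5.13%, against 13.6% and 5.81% of all genes. At an adjusted p under 0.05 without the fold threshold, 10 of the 39 were lower and 5 higher after rescaling. Among all 13763 genes 1498 (10.9%) were lower and 1373 higher by that measure. SLC38A2, an amino acid transporter and ATF4 target, was at 107, 98.4 and 99.8 TPM with DMSO and at 156, 173 and 164 TPM with oleate. Its log2 fold changes were 0.69 (SE 0.051, adjusted p = 0.00106) as deposited, 0.56 after rescaling and 0.49 after trend removal, all of them called. SLC7A11, the cystine transporter that limits glutathione synthesis, was at 61.2, 58.2 and 62.7 TPM against 85.3, 84.6 and 89.7 TPM, at 0.50 and 0.37 on the log2 scale, and at 0.19, below the fold threshold, after trend removal. NUPR1, a stress-induced chromatin protein, was lower, at 11.2, 16.01 and 9.08 TPM with DMSO and 6.72, 7.01 and 6.83 TPM with oleate (log2 fold change -0.71, adjusted p = 0.0232). The DMSO samples of NUPR1 spread widely, though none reached the oleate values. Without DMSO replicate 1 or any one of the oleate replicates the call was lost, at adjusted p from 0.0545 to 0.0628, as it was with all 18 samples in the fit (adjusted p = 0.0906).

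In the IRE1-XBP1 arm 4 of 28 genes were higher and 1 lower as deposited (2 and 2 after rescaling), and in the ATF6 arm 3 of 20 higher and 0 lower (1 and 0). The shares higher as deposited, 14.3% and 15%, were near the 13.6% of all genes. After rescaling the shares higher and lower were 7.14% and 7.14% in the IRE1-XBP1 arm and 5% and 0% in the ATF6 arm, against 5.81% and 2.91%. At an adjusted p under 0.05 alone, 7 of the 28 were lower and 3 higher after rescaling, and 0 and 2 of the 20. After trend removal the counts were 1 and 2 in the IRE1-XBP1 arm and 0 and 0 in the ATF6 arm, where 2.56% of all genes were higher and 2.20% lower. SEL1L, the adaptor of the ubiquitin ligase HRD1, was at 31.7, 28.5 and 32.8 TPM with DMSO and at 43.9, 47.2 and 49.0 TPM with oleate, at 0.58 as deposited, 0.45 (adjusted p = 0.00384) after rescaling and 0.29, under the fold threshold, after trend removal. EDEM3, which trims mannose from misfolded glycoproteins, was at 0.65 (adjusted p = 0.00702) as deposited and 0.38 (adjusted p = 0.0442) after trend removal. ERN1, the gene of the stress sensor IRE1, was at 0.48 (adjusted p = 0.00565) and 0.20 (adjusted p = 0.0736). CANX, the lectin chaperone calnexin, was at 0.42 as deposited and, below the fold threshold, at 0.28 after rescaling and 0.14 after trend removal.

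**Figure D4:**
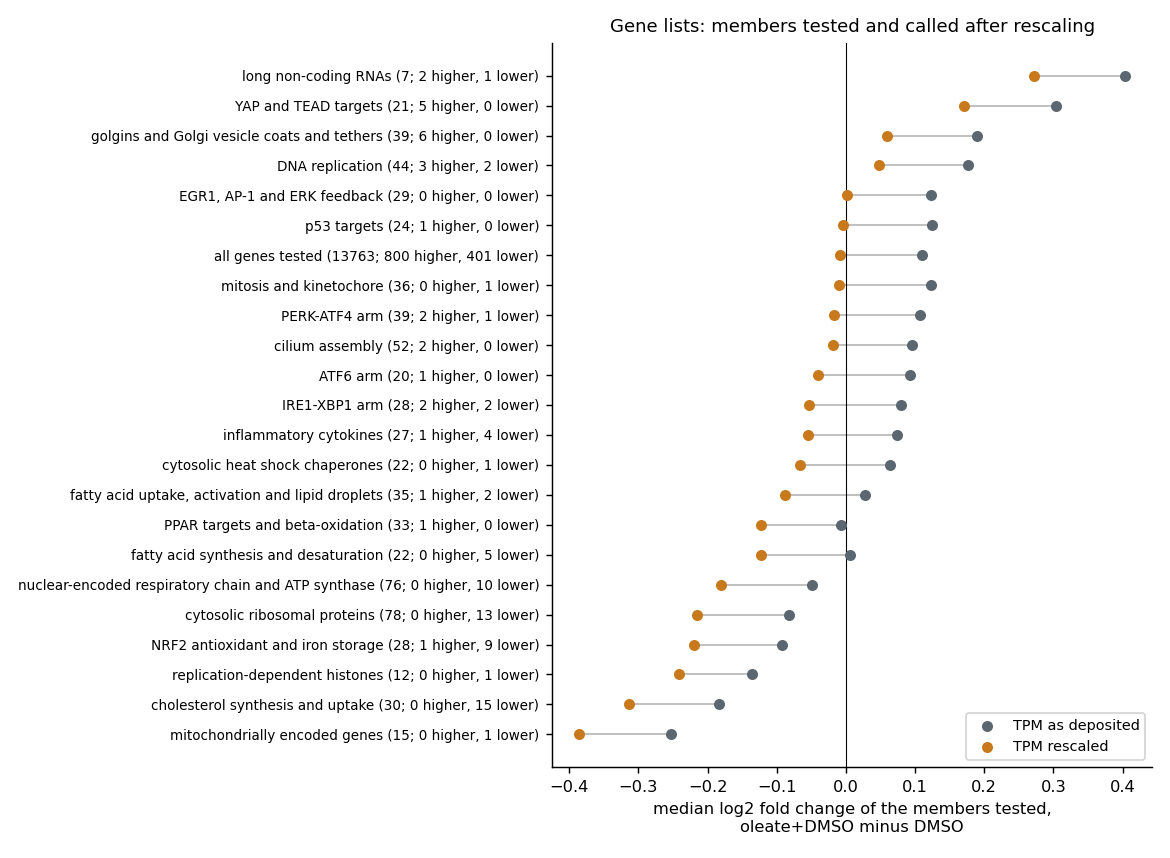
Median log2 fold change (oleate+DMSO minus DMSO, horizontal axis) of the members tested of 22 gene lists and of all 13763 genes, as deposited (grey) and after rescaling (orange), with the numbers tested and called after rescaling beside each name. The cholesterol list sits at -0.31 after rescaling with 15 of 30 called lower, and the YAP and TEAD targets at 0.17 with 5 of 21 called higher.

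Targets of YAP and TEAD, the transcriptional pair that responds to cell spreading and the Hippo pathway, were called in one direction only. Of 21 tested, 9 were called higher and 0 lower as deposited, where 13.6% of all genes were called higher, with a median log2 fold change of 0.30. All 3 oleate values were above the DMSO values for 17 of them, where that held for 35.5% of all genes. After rescaling 5 were higher, where 5.81% of all genes were, at a median of 0.17, and after trend removal 2, where 2.56% were. The median length of the list was 4868 nt. PTPN14, a phosphatase that restrains YAP, was at 9.31, 7.84 and 9.47 TPM with DMSO and at 15.6, 18.9 and 21.6 TPM with oleate. Its log2 fold changes were 0.99 (SE 0.12, adjusted p = 0.00270) as deposited, 0.87 after rescaling and 0.64 after trend removal.

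CRIM1, a transmembrane binder of bone morphogenetic proteins, was at 61.0, 58.5 and 61.5 TPM with DMSO and at 89.5, 96.7 and 92.9 TPM with oleate. The oleate samples were all higher, with log2 fold changes of 0.62 (SE 0.044, adjusted p = 0.00106), 0.49 and 0.39 under the 3 treatments of the data. The target ANKRD1, a nuclear ankyrin-repeat protein named after its values were seen, was at 0.23 as deposited and 0.10 (adjusted p = 0.154) after rescaling. CCN1 and CCN2, the matricellular targets most often used to read YAP activity and also named after their values were seen, were at 0.15 and 0.18 as deposited and at 0.024 and 0.048 (adjusted p = 0.713 and 0.432) after rescaling.

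In the antioxidant and iron storage genes of NRF2, 2 of 28 were higher and 3 lower as deposited, and 1 higher and 9 lower after rescaling. The shares lower were 10.7% and 32.1%, against 0.857% and 2.91% of all genes, and the share higher as deposited was 7.14%, against 13.6%. SLC7A11, whose values are given above, is also on this list and was higher, at 0.50 on the log2 scale as deposited. AKR1C2, an aldo-keto reductase, was at 21.9, 23.8 and 23.3 TPM with DMSO and at 17.0, 15.5 and 15.6 TPM with oleate (log2 fold change -0.49, adjusted p = 0.00296). The groups did not overlap, and the fall was called after rescaling and trend removal as well. HMOX1, the heme oxygenase, named after its values were seen, was at 57.2, 60.1 and 61.8 TPM against 48.1, 44.3 and 49.7 TPM (log2 fold change -0.33, adjusted p = 0.00679).

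Inflammatory genes were split. Of 27 tested, 4 were called higher and 1 lower as deposited, and 1 higher and 4 lower after rescaling. The share higher as deposited, 14.8%, was near the 13.6% of all genes, and the share lower after rescaling was 14.8%, against 2.91%. TNFAIP3, the deubiquitinase A20 that restrains NF-κB, was at 26.7, 27.3 and 27.9 TPM with DMSO and at 48.1, 39.8 and 48.8 TPM with oleate, all clearly higher. Its log2 fold changes were 0.71 (SE 0.080, adjusted p = 0.00214), 0.58 and 0.50 under the 3 treatments. CSF3, the granulocyte colony-stimulating factor, was at 14.8, 14.8 and 13.7 TPM against 10.9, 9.95 and 9.55 TPM, at -0.47 (adjusted p = 0.00536) as deposited, and was called lower under the other treatments too. IL24, a secreted cytokine, overlapped between the groups, with a log2 difference of 0.25 and a 95% interval of 0.023 to 0.47 (adjusted p = 0.101).

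In DNA replication 6 of 44 genes were higher and 0 lower as deposited, and 3 and 2 after rescaling. The shares higher were 13.6% and 6.82%, against 13.6% and 5.81% of all genes. MCM4, a subunit of the replicative helicase, was at 52.95, 51.3 and 49.8 TPM with DMSO and at 71.7, 73.3 and 84.5 TPM with oleate (log2 fold change 0.56, adjusted p = 0.00236), and GINS4, another helicase component, was at 0.59 (adjusted p = 0.0112). Both were called after rescaling and trend removal. Of the mitotic genes 7 of 36 (19.4%, against 13.6% of all genes) were higher as deposited, with KNL1 at 0.40 and MKI67 at 0.39. After rescaling 0 were higher and 1 lower (2.78%), against 5.81% and 2.91% of all genes. KNL1 lost its call without DMSO replicate 1 or 2 or oleate replicate 2 or 3, at adjusted p from 0.0529 to 0.0631. Replication-dependent histones, which lack poly(A) tails, had 0 calls of 12 as deposited, where 13.6% of all genes were higher and 0.857% lower. After rescaling 1 was lower (8.33%, against 2.91% of all genes). H1-2 was at -0.30 (adjusted p = 0.0655) as deposited.

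Golgi coat and tether genes had 7 of 39 called higher and 0 lower as deposited and 6 and 0 after rescaling, but 1 and 1 after trend removal. The shares higher were 17.9% and 15.4%, against 13.6% and 5.81% of all genes, and after trend removal 2.56% of all genes were higher and 2.20% lower. TRIP11, a golgin, was at 15.2, 14.6 and 16.5 TPM with DMSO and at 24.7, 28.3 and 22.6 TPM with oleate (log2 fold change 0.67, adjusted p = 0.00335), and GOLGA4, another golgin, was at 0.57 (adjusted p = 0.00705). Of the cilium assembly genes 8 of 52 (15.4%) were higher and 0 lower as deposited and 2 (3.85%) and 0 after rescaling, near or below the shares of all genes. The 2 largest values among members with a mean of at least 5 TPM, TTC21B at 0.48 (adjusted p = 0.0760) and KIF3A at 0.46 (adjusted p = 0.130), did not pass. Both passed without oleate replicate 1, at 0.62 and 0.64, and were at 0.28 and 0.26 without oleate replicate 2. KIF3A also passed with all 18 samples in the fit (adjusted p = 0.0482).

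Immediate early and ERK feedback genes had 4 of 29 called higher as deposited, 13.8% against 13.6% of all genes, and 0 in either direction after rescaling. EGR1, the early growth response factor, was at 20.9, 19.9 and 19.5 TPM with DMSO and at 25.7, 27.6 and 24.6 TPM with oleate, at 0.35 (adjusted p = 0.00751) as deposited and 0.22, under the fold threshold, after rescaling. Without oleate replicate 2 it was 0.31, also under the threshold. KLF6, a zinc finger factor of the same list, was at 0.43 and 0.30. SPRED1, an inhibitor of RAS signalling, did not pass, at 0.36 (adjusted p = 0.0733), but did without DMSO replicate 3, at 0.49, and was at 0.23 (adjusted p = 0.156) without DMSO replicate 1. Of the p53 targets 3 of 24 (12.5%) were higher as deposited and 1 (4.17%) after rescaling, both below the shares of all genes, with the translesion polymerase POLH at 0.45 (adjusted p = 0.110) and the ribonucleotide reductase subunit RRM2B at 0.41 (adjusted p = 0.0272). POLH passed without oleate replicate 1, at 0.61, and was at 0.24 without oleate replicate 2, and RRM2B kept its call only without DMSO replicate 1. The cytosolic chaperones had 0 calls of 22 as deposited, where 13.6% of all genes were higher and 0.857% lower. After rescaling 1 was lower (4.55%, against 2.91% of all genes). HSPB1, a small heat shock protein, was at 227, 242 and 220.2 TPM against 182, 179.9 and 189 TPM, with a log2 fold change of -0.32, just short of the fold threshold, and passed it after rescaling at -0.45. It also passed without DMSO replicate 1 or 3 or oleate replicate 3, at -0.35 to -0.33. DNAJB4, a co-chaperone, was at 0.35 (adjusted p = 0.0588), and at 0.46 (adjusted p = 0.0166) without oleate replicate 1.

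Most of the largest rises and falls of all were at loci whose reads may be shared. Among the 8 largest rises with a mean of at least 5 TPM, 2 were pseudogenes, SMG1P4 at 1.71 and PKD1P1 at 1.15 on the log2 scale. ENSG00000268750 at 1.497, ENSG00000267059 at 1.34 and ENSG00000249456 at 1.16 overlapped other genes on the same strand, and ENSG00000279618, at 2.16, had no entry in the annotation used here. RN7SL2, an RNA of the signal recognition particle, was at 55.7, 51.1 and 62.6 TPM with DMSO and at 118, 114 and 412 TPM with oleate, at a log2 fold change of 1.64, or 1.03 (adjusted p = 0.00503) without oleate replicate 3, and its call was lost without any one DMSO replicate. PLXNA3, a semaphorin receptor that lies opposite LAGE3, was at 7.40, 4.76 and 5.36 TPM against 12.7, 9.80 and 23.3 TPM (log2 fold change 1.18, adjusted p = 0.0223), and lost its call without DMSO replicate 2 or 3. The same held for SMG1P4 without DMSO replicate 2 or 3 or oleate replicate 2 or 3, and for ENSG00000279618 without DMSO replicate 3 or oleate replicate 2 or 3. After trend removal PLXNA3 (adjusted p = 0.0736) and SMG1P4 (adjusted p = 0.0627) did not pass. Nor did SMG1P4 with the replicate number as a block in the fit (adjusted p = 0.0613).

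Among the 8 largest falls, CXCR5, a chemokine receptor of B cells that lies opposite BCL9L, was at 11.4, 8.62 and 7.36 TPM with DMSO and at 2.75, 1.04 and 2.31 TPM with oleate (log2 fold change -1.77, adjusted p = 0.00366). TUBA1B-AS1, antisense to the tubulin gene TUBA1B, was at 55.7, 88.2 and 77.2 TPM against 19.2, 29.3 and 26.5 TPM (log2 fold change -1.52). With all 18 samples in the fit it did not pass (adjusted p = 0.0829), nor did ENSG00000258430 (adjusted p = 0.201). ENSG00000261759 at -2.06, ENSG00000258430 at -1.52 and ENSG00000267125 at -0.80 lie opposite ITPRIPL2, AKT1 and KLF16, and the call of the last was lost without DMSO replicate 2 or 3 or oleate replicate 1 or 2. ENSG00000260772 at -0.90 lies within NFAT5 on the same strand, SCIRT at -0.97 is a long non-coding RNA opposite LINC03040 and ENSG00000231881, and ENSG00000268205 at -0.91 is another long non-coding RNA. The strand setting of the counting is not given in the sources used here, so reads of the loci that overlap a neighbour and those of the neighbour cannot be told apart. ENSG00000268205 overlaps no other gene of the annotation.

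Protein-coding genes without an overlapping neighbour on the same strand were examined separately, and those named next were chosen after their values were seen. With a mean of at least 5 TPM, no overlap of the groups and a call under all 3 treatments, there were 132 rises and 44 falls. ZC3H12C, an RNase-related regulator of inflammatory transcripts, was at 9.02, 8.45 and 9.60 TPM with DMSO and at 19.0, 20.5 and 22.2 TPM with oleate, at 1.10 as deposited and 0.79 after trend removal. IL6ST, the gp130 receptor subunit shared by IL-6 and LIF, was at 23.1, 18.1 and 19.5 TPM against 39.5, 42.9 and 46.4 TPM, at 1.05 and 0.75. LIF itself, a list member, was at 171, 165 and 181 TPM against 211, 243 and 247 TPM, at 0.44 (adjusted p = 0.00443) as deposited and 0.30, under the fold threshold, after rescaling.

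CEP250, a linker of centrosomes, was at 1.09 as deposited and 0.74 after trend removal, and SMG1, a kinase of nonsense-mediated decay, at 1.05 and 0.68. MUC5AC, a secreted mucin, was at 12.2, 12.9 and 14.4 TPM with DMSO and at 22.6, 25.0 and 32.2 TPM with oleate, at 0.95 and 0.59. The largest falls of this set, after CXCR5, were SCD, FASN and NUPR1. FGFBP1, a secreted carrier of fibroblast growth factors, was at 20.3, 23.8 and 17.9 TPM against 11.4, 13.98 and 12.5 TPM (log2 fold change -0.66, adjusted p = 0.00696).

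The change with oleate was then set against that in the presence of CAY10566, which asks whether blocking the cell's own desaturase alters the response to supplied oleate. An interaction term over the 12 samples of DMSO, oleate+DMSO, CAY10566 and oleate+CAY10566 called 0 of 13773 genes (0%) with limma, at a lowest adjusted p of 0.514. At an unadjusted p under 0.05 there were 1294 genes, where 5% of the genes tested would be 689, and after rescaling there were 0 called and 1341. Without CAY10566 replicate 3, whose length trend stood apart, 0 were called and 898 had an unadjusted p under 0.05.

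SCD was at 185, 174 and 207 TPM with CAY10566 and at 114, 128 and 116 TPM with oleate+CAY10566, again without overlap. Its log2 fold change there was -0.66 (adjusted p = 0.172), and the interaction was -0.12 with a 95% interval of -0.33 to 0.087. INSIG1 was at 66.5, 62.0 and 71.6 TPM against 43.6, 45.3 and 42.9 TPM, with an interaction of 0.0069 and a 95% interval of -0.21 to 0.22. For FASN, at 90.5, 90.0 and 84.7 TPM against 60.2, 57.6 and 75.7 TPM, the interaction was -0.30 with a 95% interval of -0.60 to -0.013 (adjusted p = 0.526). In the comparison of oleate+CAY10566 with CAY10566, limma called 0 of 13750 genes, with 1039 at an unadjusted p under 0.05, and 3 genes with 2832 when CAY10566 replicate 3 was left out. The intervals of SCD and INSIG1 span 0 and leave room for a difference in response in either direction. That of FASN lies below 0, and those of PTPN14 (0.70, 0.030 to 1.37), SLC7A11 (0.42, 0.065 to 0.77) and LPIN2 (0.32, 0.013 to 0.62) lie above 0, though none of these interactions passed the adjusted test.

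Stearate and oleate have the same chain length and differ by an unsaturation, and both were given at 50 µM with DMSO for 24 h. Against stearate+DMSO, 399 of 13799 genes (2.89%) were higher with oleate and 114 (0.826%) lower, and 346 (2.51%) and 196 (1.42%) after rescaling. The count of higher genes as deposited fell to 146 and 189 without stearate replicate 2 and 3 and to 169 and 150 without oleate replicate 2 and 3. The count of lower genes fell to 39 and 57 without the former and to 68, 56 and 50 without oleate replicate 1, 2 and 3. This comparison uses the same 3 oleate samples as the one with vehicle, so the values for each gene are given side by side. SCD was at 169.9, 152 and 131 TPM with stearate, above every oleate sample, with a log2 difference between oleate and stearate of -0.54 (adjusted p = 0.0169). INSIG1, at 58.8, 57.0 and 50.4 TPM with stearate, differed by -0.42 (adjusted p = 0.0240), and DHCR7, at 86.2, 83.7 and 77.6 TPM, by -0.40 (adjusted p = 0.00677). FASN did not pass the test between the fatty acids. It was at 56.4, 61.5 and 65.0 TPM with stearate, which overlapped the oleate samples, with a log2 difference of -0.055 and a 95% interval of -0.22 to 0.11. SREBF1, at 47.0, 44.5 and 42.0 TPM with stearate, had a difference of -0.078 and a 95% interval of -0.22 to 0.065. Neither interval shows that the fatty acids act alike.

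Of the 30 cholesterol genes, 3 were lower with oleate than with stearate as deposited and 5 after rescaling, where 0.826% and 1.42% of all genes were, and 0 were higher. YAP and TEAD targets were the list with the most genes higher with oleate than with stearate, 11 of 21 as deposited and 9 of 21 after rescaling (2.89% and 2.51% of all genes), at medians of 0.34 and 0.30. CRIM1, at 64.0, 54.3 and 46.4 TPM with stearate, differed by 0.76 (adjusted p = 0.00869), and ANKRD1, at 39.8, 37.1 and 34.0 TPM, by 1.18 (adjusted p = 0.000213). PTPN14 was at 15.5, 13.5 and 10.7 TPM with stearate, and its difference of 0.47 (95% interval 0.12 to 0.82) had an adjusted p of 0.113.

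F3 and IL24 were called between the fatty acids but not between oleate and vehicle. F3, tissue factor, was at 364, 381 and 340.3 TPM with DMSO, at 408, 386 and 398 TPM with oleate and at 125, 129 and 111 TPM with stearate. Oleate and stearate differed by 1.70 on the log2 scale (adjusted p = 4.53e-05), and oleate and vehicle by 0.14 (adjusted p = 0.0676). IL24 was at 2.14, 1.88 and 2.52 TPM with stearate, and oleate and stearate differed by 1.87 (adjusted p = 0.000629). EGR1 and HMOX1, by contrast, were also called between oleate and vehicle as deposited. EGR1 was at 50.4, 42.8 and 45.5 TPM with stearate, above both other groups, with a difference of -0.81 (adjusted p = 0.00154). The NRF2 list had 1 gene higher and 10 lower with oleate than with stearate after rescaling (2.51% and 1.42% of all genes), the latter including HMOX1 at -0.63 (adjusted p = 0.00236). Of the unfolded protein response genes, HSPA5, DDIT3 and ATF4 had log2 differences between oleate and stearate of -0.26, -0.25 and -0.25, each with an adjusted p under 0.05 and under the fold threshold.

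**Figure D5:**
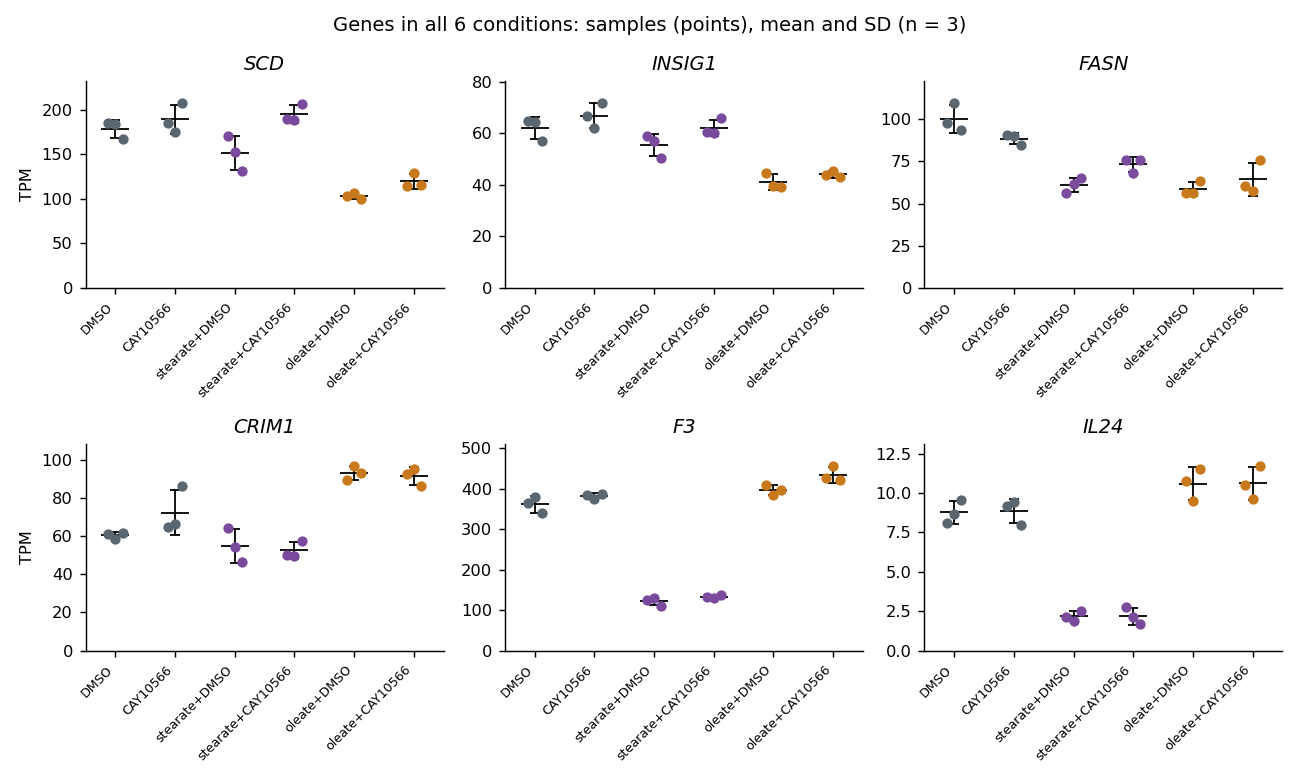
TPM (vertical axes, from 0) of 6 genes in the 3 samples of each of the 6 conditions, with mean and SD, for vehicle and CAY10566 (grey), stearate (purple) and oleate (orange). SCD and INSIG1 are lowest in the 6 samples with oleate, FASN is low with either fatty acid, CRIM1 is highest with oleate+DMSO at 89.5 to 96.7 TPM, and F3 and IL24 are low with stearate only.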

How the data were processed

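RNA sequencing of OVCAR5 cells was deposited by the authors as one table of TPM per gene, made from reads trimmed with Trim Galore, aligned to GRCh38 with STAR 2.7.1a and quantified with RSEM, per the labels and the methods. Every sample sums to the same total, and TPM keeps no depth, so precision rests on the spread between replicates. The libraries were stranded, but the strand setting of the counting is not given in the sources used here. A line naming no gene was left out (1 line), value columns not mapped to a sample numbered 0, and 56321 gene identifiers (93.1%) had a symbol. Lengths, GC content and positions come from GENCODE, a later annotation than that of the authors, on the same build.

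Groups followed the labels. limma 3.58.1 (R 4.3.3; lmFit, eBayes with a variance trend, Benjamini-Hochberg adjustment) was fitted to log2(TPM + 1) of genes with a mean of at least 1 TPM in the samples compared, and genes were called at an adjusted p under 0.05 and a fold change over 1.25 (0.32 on the log2 scale). An exact permutation test of 3 against 3 samples cannot go below p = 0.1 and was not used. The same fit served oleate+DMSO against stearate+DMSO and the interaction with CAY10566. Size factors were medians of ratios over genes above 0 in all samples. Length and GC trends were removed per sample with splines of 3 degrees of freedom each, on log10 length. Figures used matplotlib 3.10.9 in Python 3.11.15. The scripts were tested on simulated data.

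The comparison and the gene lists were chosen with earlier results of these data known. Named genes were the 8 largest rises and 8 largest falls with a mean of at least 5 TPM, called as deposited and rescaled without overlap of the groups, a fixed set of lipid and stress genes, and the 2 largest changes of each list with a mean of at least 5 TPM. All others are said to be chosen after their values were seen. Some genes that the rule names are not reported here. Alternatives were a pseudocount of 0.1, no filter, a mean of at least 5 TPM, no variance trend, rescaling, a replicate block, all 18 samples, trend removal and each sample left out. Trend removal with the level removed for named genes, for lists and for the stearate comparison, list counts with a sample left out, and the CAY10566 contrast with a sample left out were chosen after seeing the data. The authors' other cell lines, palmitate and animal experiments were not analysed here.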

Additional observations from a re-analysis of the deposited data

How the results depend on the processing

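For oleate against vehicle, rescaling gave 800 higher and 401 lower, and trend removal gave 349 and 300, or 1200 higher where the level was kept. An adjusted p under 0.05 without a fold threshold gave 3024 and 466. Leaving out 1 sample gave 1259 to 1993 higher and 83 to 136 lower as deposited, and 501 to 760 and 252 to 525 after rescaling, the lowest both without DMSO replicate 2. With the replicate block, counts were 1610 and 118, and with rescaling as well 644 and 354. Deviations of same-numbered DMSO and oleate samples correlated at 0.069, 0.021 and 0.070, not enough to pair them, though each was the highest for its oleate sample. The pseudocount, the filters, the variance trend and all 18 samples kept both counts within 1.5 times. The interaction with CAY10566 called 1 gene with a pseudocount of 0.1 (ENSG00000276026), 0 to 1 with a sample left out (SNORA48 without oleate replicate 2, ENSG00000260570 without DMSO replicate 2), and 0 with the replicate block.

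Oleate against stearate gave 123 higher and 38 lower with the replicate block, 196 lower rescaled, 198 lower after trend removal, and 146 to 353 higher and 39 to 81 lower with a sample left out. The rho between length and fold change was 0.439 to 0.458 with a sample left out and 0.531 at a mean of at least 5 TPM. Of 78 named genes, rescaling left 62 calls as they were, raised 8 past the threshold and took 8 below it, trend and level removal (without ENSG00000279618, which had no transcript length) did so for 57, 3 and 17, and the replicate block for 76, 1 and 1. No call changed sign under these alternatives. The median of 10 of 22 lists changed sign on rescaling. Cholesterol genes called lower numbered 7 to 10 as deposited and 11 to 14 rescaled with a sample left out, and YAP and TEAD targets called higher 6 to 10 and 4 to 5. The causes were not tested. TPM holds no depth, and 3 samples a group limit the precision.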

Other observations

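Several abundant transcripts outside the lists were also lower with oleate, and they are named here after their values were seen. ALDOA, the glycolytic aldolase, was at 2805, 2963 and 2803 TPM with DMSO and at 2338, 2125 and 2195 TPM with oleate. Its groups did not overlap, with log2 fold changes of -0.37 (limma, adjusted p = 0.00200) as deposited, -0.50 after rescaling and -0.40 after trend removal. IFITM1, an interferon-induced membrane protein, was at 349.9, 385 and 359 TPM with DMSO and at 267, 255 and 260.1 TPM with oleate (log2 fold change -0.48, limma, adjusted p = 0.00114). IFI27, another interferon-induced gene, went from 655, 757 and 558 TPM to 517, 384 and 479 TPM (log2 fold change -0.51, limma, adjusted p = 0.0281), with a wide spread in both groups. S100P, a calcium-binding protein, was at 444, 457 and 467 TPM against 365, 343 and 362 TPM, at -0.35 as deposited and -0.34 after trend removal.

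PLIN2, a lipid droplet coat gene that fatty acids commonly induce, was at 0.12 to 0.54 TPM over the 6 samples and over all 18 samples, below the level for a test, while its neighbours on chromosome 9 were expressed. HAUS6 ran from 13.5 to 19.6 TPM, DENND4C from 7.65 to 10.3 TPM, RRAGA from 32.4 to 36.5 TPM and RPS6 from 2526 to 2652 TPM over the 6 samples. Whether the low PLIN2 values reflect its RNA or the upstream assignment of its reads was not tested.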
